A study of Mus musculus with 4 samples.

Results

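Neurotrophins and their receptors were examined in the prefrontal cortex (PFC) of mice after knockdown of *Ash1L*. The genes are 6 fixed symbols, the ligands *Bdnf* and *Ntf3*, the tyrosine kinase receptors *Ntrk2* and *Ntrk3*, the p75 receptor gene *Ngfr* and the sorting receptor gene *Sort1*, out of 23420 gene symbols in the count tables. All 6 were in the tables and all 6 passed the filter on low counts, which left 16232 genes for testing. Bulk RNA from PFC punches was sequenced for 2 control samples and 2 *Ash1L* shRNA samples of C57BL6/J mice. Each group received an AAV9 injection, a GFP virus in the controls per the labels (a scrambled shRNA AAV per the methods) and a GFP-tagged virus with an *Ash1L* short hairpin RNA under the U6 promoter in the knockdown mice. The U6 promoter is not specific to a cell type, and the lysates held the RNA of all cells in a punch. Mice of both sexes were injected at 5 weeks of age per the methods, and the series text gives an age of 6 to 8 weeks. Each sample was a pool of 3 mice according to the methods, but the series text names 3 *Ash1L* shRNA mice and 2 control mice.

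Neurotrophins are secreted growth factors that support the survival, growth and synaptic plasticity of neurons. They are made as proneurotrophins and cut by proteases to the mature form. Mature BDNF binds TrkB (the product of *Ntrk2*) and mature NT-3 (the product of *Ntf3*) binds TrkC (the product of *Ntrk3*), while proneurotrophins bind p75NTR together with sortilin (the product of *Sort1*). In cortex, *Bdnf* is transcribed mainly in excitatory neurons from several promoters that respond to neuronal activity. *Ntrk2* gives a kinase form in neurons and a truncated form that is abundant in astrocytes, and a count per gene adds both forms together.

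Total counts ran from 14251190 to 35764874 per sample, with the smallest total in control sample 1. *Ash1l*, the targeted gene, had 245 and 290 CPM (counts scaled to a common library total, after TMM) in the control samples and 216 and 138 in the *Ash1L* shRNA samples, so it was lower in both knockdown samples and lowest in sample 2. Its log2 fold change was -0.60 ± 0.22 (SE) and adjusted p = 0.275 (quasi-likelihood test of edgeR, Benjamini-Hochberg). Markers of excitatory neurons, interneurons, astrocytes and oligodendrocytes were present in every sample. In bulk tissue, fewer cells of a type and less RNA per cell cannot be told apart. With 2 samples per group, 0.333 is the smallest two-sided p that exact permutation allows, so p-values come from the fit across all genes, and with pooled mice they measure the spread between these samples.

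The ligand gene *Bdnf* was about 3-fold higher after *Ash1L* knockdown, while *Sort1* was lower by a large part of its level and *Ntrk2* by a small part. *Ntrk3*, *Ngfr* and *Ntf3* did not pass the test. A gene was called UP or DOWN at an unadjusted p under 0.05 and a change of at least 1.2-fold, the limits of the study's methods. Of the 6 genes, 1 was UP and 2 were DOWN, whereas 8.61% of all genes tested were UP and 8.28% were DOWN. These shares moved with the samples used: over all genes, 1344 were DOWN and 1397 UP with all samples, 699 and 856 without control sample 1, 306 and 423 without control sample 2, 2718 and 2368 without *Ash1L* shRNA sample 1, and 842 and 1043 without *Ash1L* shRNA sample 2. Adjusted over all genes tested, none of the 6 passed 0.05 by edgeR's quasi-likelihood test (0.00616% of all genes did). Of the 6, 3 had an unadjusted p under 0.05 and the adjusted values ran from 0.25 to 0.61. The 2 groups did not overlap for 5 of the 6 genes, which was so for 53.2% of all genes tested. Both knockdown samples were below both controls for 3 of the 6 genes (26.8% of all genes) and above them for 2 (26.5% of all genes). The median log2 fold change of the 6 genes was -0.07.

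**Figure D1:**
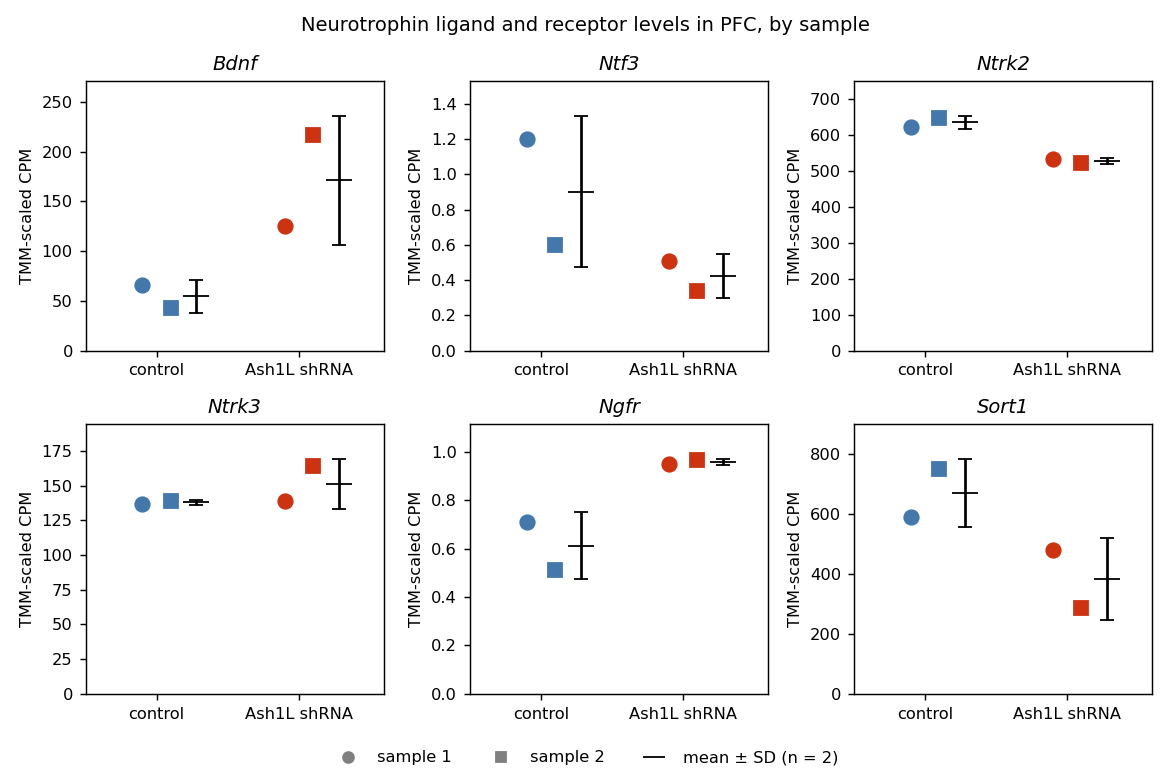
TMM-scaled CPM (y axis, from 0) of each gene in the 2 control samples (blue) and the 2 *Ash1L* shRNA samples (red), with circles for sample 1, squares for sample 2, and bars for the mean ± SD of 2 samples. *Bdnf* lay at 125 and 217 CPM in the knockdown samples against 66.0 and 43.0 in controls, while *Sort1* and *Ntrk2* lay below both controls and *Ntrk3* overlapped.

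*Bdnf* (ENSMUSG00000048482), which encodes brain-derived neurotrophic factor, lies on chromosome 2 of mm10 from 109674700 to 109727007 on the plus strand. It had 932 and 1508 raw counts in control samples 1 and 2, and 3432 and 4488 in *Ash1L* shRNA samples 1 and 2. In TMM-scaled CPM the values were 66.0 and 43.0 in the control samples and 125 and 217 in the *Ash1L* shRNA samples. Both knockdown samples lay above both controls, and sample 2 was the highest. The mean was 54.5 ± 16.3 CPM (SD, n = 2) in control and 171 ± 64.5 CPM (SD, n = 2) in *Ash1L* shRNA samples. *Bdnf* rose by a log2 fold change of 1.65 ± 0.32 (SE), a fold of 3.15 with a 95% interval from 1.80 to 5.52. The unadjusted p was 0.00279 and the adjusted p was 0.25 (edgeR's quasi-likelihood test). With other tests of the same counts, the adjusted p was 9.42e-06 in DESeq2 and 0.000308 in edgeR's likelihood ratio test. Over the 4 fits that left out 1 sample, the log2 fold change ran from 1.21 to 2.0 and *Bdnf* was called UP in all 4.

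RefSeq lists 7 *Bdnf* start-site windows on GRCm38.p6, each running from 250 bases before a start site to 50 bases after it, and the deposited count adds transcripts from all of them. The first and the third window are shown because activity-dependent *Bdnf* transcription starts from several of these sites, and the third holds TCACGTCA, a variant of the cyclic AMP response element TGACGTCA. Capitals mark that match.
Bdnf window 1, chr2:109674450-109674749, plus strand: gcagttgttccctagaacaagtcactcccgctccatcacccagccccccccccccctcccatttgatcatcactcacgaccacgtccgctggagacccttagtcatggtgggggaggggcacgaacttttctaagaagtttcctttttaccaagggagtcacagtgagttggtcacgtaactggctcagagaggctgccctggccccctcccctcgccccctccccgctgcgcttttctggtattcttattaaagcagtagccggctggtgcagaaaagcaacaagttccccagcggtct
Bdnf window 3, chr2:109692186-109692485, plus strand: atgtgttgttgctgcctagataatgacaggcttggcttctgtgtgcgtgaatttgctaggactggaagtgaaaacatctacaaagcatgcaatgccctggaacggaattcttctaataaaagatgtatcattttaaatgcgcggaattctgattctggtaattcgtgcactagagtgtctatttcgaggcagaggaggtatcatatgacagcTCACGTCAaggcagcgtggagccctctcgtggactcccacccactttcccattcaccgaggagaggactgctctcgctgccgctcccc
The windows were searched on both strands for TGACGTCA, for TCACGTCA, for their shared end CGTCA, and for the E-box CACGTG, a motif known for the USF factors. The third window holds TCACGTCA, which includes CGTCA, beginning 38 bases before the start site. Of all 32817 promoter windows of this length, 0.442% hold TCACGTCA, 1.79% hold TGACGTCA, 20.8% hold CGTCA and 7.15% hold CACGTG. None of these motifs was found in the other *Bdnf* windows, in the *Ntrk2* window or in the *Ngfr* window, and 1 of 2 *Ntf3* windows holds CACGTG. The sequences cover *Bdnf*, *Ntf3*, *Ntrk2* and *Ngfr*. The counts per gene do not say which *Bdnf* start site was used.

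Across the 4 samples, the genes whose log2 CPM pattern lay nearest to that of *Bdnf* were *Gadd45a*, *Scg2* and *Nptx2*, out of 12466 other genes with a mean normalized count of at least 100. The root mean square distance, on the log2 scale after centring each gene on its own mean, was 0.040 for *Gadd45a*, 0.050 for *Scg2* and 0.054 for *Nptx2*. *Scg2* encodes the secretory granule protein secretogranin II, and it had 318 and 215 CPM in control and 589 and 986 CPM in *Ash1L* shRNA samples. *Nptx2* encodes a secreted neuronal pentraxin that binds AMPA receptors, and it had 103 and 62.3 CPM in control and 192 and 348 CPM in *Ash1L* shRNA samples. In these 3 genes, as in *Bdnf*, control sample 2 was the lowest and *Ash1L* shRNA sample 2 the highest. With 4 samples, this nearness is a description only.

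*Ntf3* (ENSMUSG00000049107, chromosome 6 from 126101412 to 126166910, minus strand), the gene of neurotrophin-3, was detected at the edge of counting. It had 17 and 21 raw counts in the control samples and 14 and 7 in the *Ash1L* shRNA samples. The exact Poisson 95% interval of the count, which covers counting error only, ran from 9.90 to 27.2 in control sample 1 and from 2.81 to 14.4 in *Ash1L* shRNA sample 2. Scaled to CPM, the values were 1.2 and 0.599 in control and 0.511 and 0.338 in *Ash1L* shRNA samples, with both knockdown samples below both controls. The log2 fold change was -0.98 ± 0.59 (SE), with a 95% interval from -2.42 to 0.45 and adjusted p = 0.422 (edgeR quasi-likelihood), so a difference was not detectable at this depth. With 1 sample left out, the log2 fold change ran from -1.48 (without control sample 2) to -0.47 (without control sample 1). The tested genes nearest to its pattern, at distances of 0.202 to 0.206, were *Hlf*, *Ppp1r3g* and *Klhdc7a*.

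*Ntf5*, the gene of neurotrophin-4, is a further ligand gene of the family. Its raw counts were 1 and 12 in control and 12 and 15 in *Ash1L* shRNA samples, and its log2 fold change of 1.21 ± 0.74 (SE) did not pass the test.

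*Ntrk2* (ENSMUSG00000055254, chromosome 13 from 58806569 to 59133970, plus strand) encodes TrkB, the receptor of BDNF. It had 624 and 648 CPM in the control samples and 535 and 523 CPM in the *Ash1L* shRNA samples. The groups did not overlap, and within each group the samples lay close together, with means of 636 ± 17.3 (SD, n = 2) and 529 ± 8.8 (SD, n = 2). *Ntrk2* was called DOWN with a fold of 0.831, a 95% interval from 0.692 to 0.998, an unadjusted p of 0.0486 and adjusted p = 0.294 (edgeR quasi-likelihood). The call sat at the threshold. It was lost without control sample 1 (log2 fold change -0.28), control sample 2 (-0.24), *Ash1L* shRNA sample 1 (-0.29) or *Ash1L* shRNA sample 2 (-0.25), against -0.27 with all samples, and when samples were blocked by replicate number (-0.27, unadjusted p of 0.113 in edgeR's quasi-likelihood test). Of 12 astrocyte markers, 9 were DOWN (8.28% of all genes tested), as were 4 of 8 excitatory neuron and 5 of 10 interneuron markers. The summed astrocyte level was 5510 and 5790 CPM in control against 4330 and 3130 CPM in *Ash1L* shRNA samples. In log2 over the control mean, this sum was at -0.39 and -0.85 in *Ash1L* shRNA samples 1 and 2. *Ntrk2* was at -0.25 and -0.28 in the same samples. The part of astrocyte or neuronal RNA in the *Ntrk2* value was not tested.

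*Ntrk3* (ENSMUSG00000059146, chromosome 7 from 78175959 to 78738012, minus strand) encodes TrkC. It had 137 and 139 CPM in control samples and 139 and 164 CPM in *Ash1L* shRNA samples. *Ash1L* shRNA sample 1 lay with the controls and sample 2 above them, so the groups overlapped. The log2 fold change was 0.13 with a 95% interval from -0.17 to 0.43 and adjusted p = 0.61 (edgeR quasi-likelihood). This interval leaves room for a fold between 0.888 and 1.35. The log2 fold change was 0.24 without *Ash1L* shRNA sample 1 and 0.01 without *Ash1L* shRNA sample 2.

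*Ngfr* (ENSMUSG00000000120, chromosome 11 from 95568818 to 95587735, minus strand) encodes p75NTR, a receptor shared by all neurotrophins that is low in most neurons of the adult cortex. It had 10 and 18 raw counts in control and 26 and 20 in *Ash1L* shRNA samples. Scaled to CPM, it was at 0.708 and 0.513 in control and at 0.949 and 0.965 in *Ash1L* shRNA samples, so both knockdown samples were higher. Its log2 fold change was 0.69 ± 0.47 (SE), with a 95% interval from -0.46 to 1.83 and adjusted p = 0.48 (edgeR quasi-likelihood). Schwann cells also express *Ngfr*, and markers of Schwann cells were near 0, with a summed level of 2.48 and 2.51 CPM in control and 2.81 and 4.29 CPM in *Ash1L* shRNA samples. Of the 3 Schwann cell markers that passed the filter, 1 was UP (8.61% of all genes tested). Both knockdown samples were above both controls for 2 of the 3 (26.5% of all genes). *Dhh*, the UP marker, had 2 and 7 raw counts in control and 13 and 20 in *Ash1L* shRNA samples, while *Foxd3* had 0 counts in all samples. The part of these cells in the *Ngfr* value was not tested. For the mural cells of vessels, 1 of 10 markers was UP and none was DOWN, beside 8.61% and 8.28% of all genes tested. Their sums ran from 255 to 275 CPM over all 4 samples.

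*Sort1* (ENSMUSG00000068747, chromosome 3 from 108284082 to 108361511, plus strand) encodes sortilin, which sorts proBDNF inside neurons and pairs with p75NTR at the surface. It had 8342 and 26286 raw counts in control samples and 13141 and 5932 in *Ash1L* shRNA samples, so counting error was small. The scaled values were 591 and 749 CPM in control and 480 and 286 CPM in *Ash1L* shRNA samples, with both knockdown samples below both controls and sample 2 the lowest. *Sort1* was called DOWN with a log2 fold change of -0.81 ± 0.26 (SE) and adjusted p = 0.261 (edgeR quasi-likelihood), a fold of 0.572 with a 95% interval from 0.366 to 0.893. Its adjusted p was 0.0474 in DESeq2 and 0.0982 in edgeR's likelihood ratio test. Without control sample 2 the log2 fold change was -0.63 and the call was lost. The other 3 fits that left out a sample kept it, with values from -1.23 to -0.48. *Lfng*, *Plcxd2* and *Cntnap5b* had the nearest pattern to *Sort1*, at distances of 0.020 to 0.027.

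**Figure D2:**
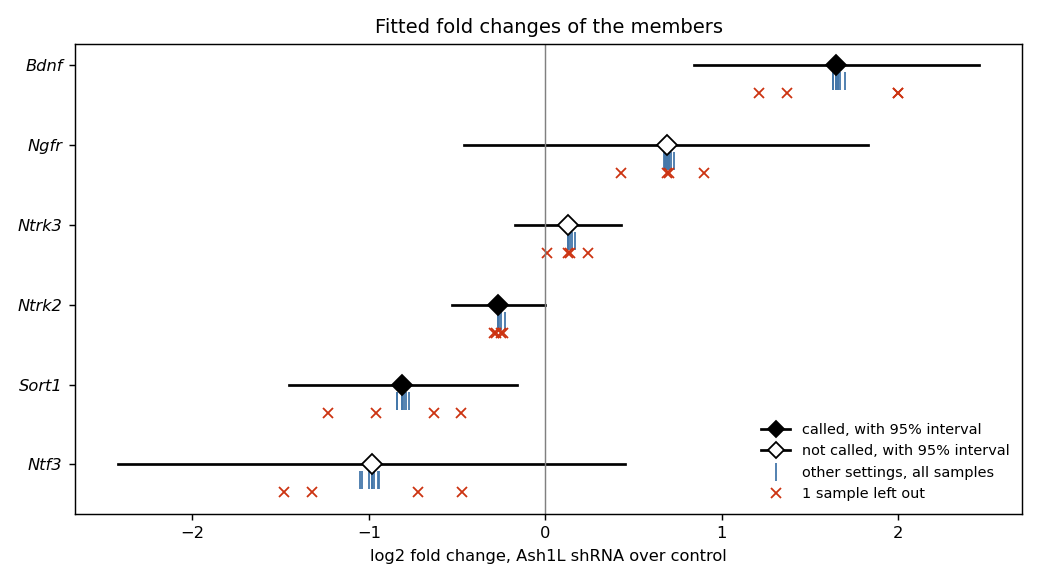
Fitted log2 fold change of *Ash1L* shRNA over control (x axis) for each gene, as a diamond (filled if called UP or DOWN) with its 95% interval, blue ticks for other settings with all samples and red crosses for fits without 1 sample. The interval of *Bdnf* lies above 0 and that of *Sort1* below 0, that of *Ntrk2* ends at its edge, and those of *Ngfr*, *Ntrk3* and *Ntf3* span 0.

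Of the genes of the relatives of sortilin, only *Sorcs3* was called. *Sorcs3*, which encodes a neuronal sorting receptor of the same family, had 86.8 and 74.1 CPM in control and 117 and 208 CPM in *Ash1L* shRNA samples. It was called UP with a log2 fold change of 1.02 ± 0.27 (SE) and adjusted p = 0.258 (edgeR quasi-likelihood), and not without control sample 2 (0.90). *Sorl1*, *Sorcs1* and *Sorcs2* did not pass the test, with log2 fold changes of 0.23, -0.09 and 0.32. Among the partners of p75NTR and of the Trk receptors, *Rtn4r*, the gene of the Nogo receptor, was called DOWN at 61.4 and 53.3 CPM in control against 43.7 and 26.1 CPM in *Ash1L* shRNA samples, giving a log2 fold change of -0.71. The call of *Rtn4r* was lost without control sample 1 (-0.60) or control sample 2 (-0.82). *Lingo1*, *Kidins220* and *Slitrk5* had log2 fold changes of -0.25, 0.05 and -0.06 and were not called.

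Levels of different genes were compared as CPM per kb of exon, with exonic lengths from GENCODE vM21, which may differ from the gene models that were counted. Each length joins all annotated exons of a gene, 30.17 kb for *Ntrk3*, 19.29 kb for *Ntrk2* and 6.22 kb for *Bdnf*. In the control samples the order was *Sort1* (78.1 and 99.0), *Ntrk2* (32.3 and 33.6), *Bdnf* (10.6 and 6.91), *Ntrk3* (4.53 and 4.62), *Ntf3* (0.703 and 0.349) and *Ngfr* (0.206 and 0.149). No neighbours in this order overlapped between their 2 samples, a comparison that leaves out counting error. The place of *Ntf3* above *Ngfr* rested on 17 and 21 against 10 and 18 raw counts and is uncertain. The order depends on the lengths used. In CPM without division by length, *Ntrk3* (137 and 139) lay above *Bdnf* (66.0 and 43.0) in both controls. There *Sort1* (591 and 749) overlapped *Ntrk2* (624 and 648), and *Ntf3* (1.2 and 0.599) overlapped *Ngfr* (0.708 and 0.513). In the *Ash1L* shRNA samples *Bdnf*, at 20.2 and 34.8 CPM per kb, lay on both sides of *Ntrk2*, at 27.7 and 27.1, and could not be ranked against it. In CPM without division by length, *Bdnf* (125 and 217) lay below *Ntrk2* (535 and 523) in both of these samples. By CPM per kb, *Ntf3* (0.298 and 0.197) and *Ngfr* (0.275 and 0.280) could not be ranked in the *Ash1L* shRNA samples either. As a ratio of raw counts within each sample, which needs no scaling between samples, *Bdnf* over *Ntrk2* was 0.106 and 0.0663 in control and 0.234 and 0.414 in *Ash1L* shRNA samples. *Bdnf* over *Sort1* was 0.112 and 0.0574 in control and 0.261 and 0.757 in *Ash1L* shRNA samples. Both ratios were higher in both knockdown samples than in both controls.

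**Figure D3:**
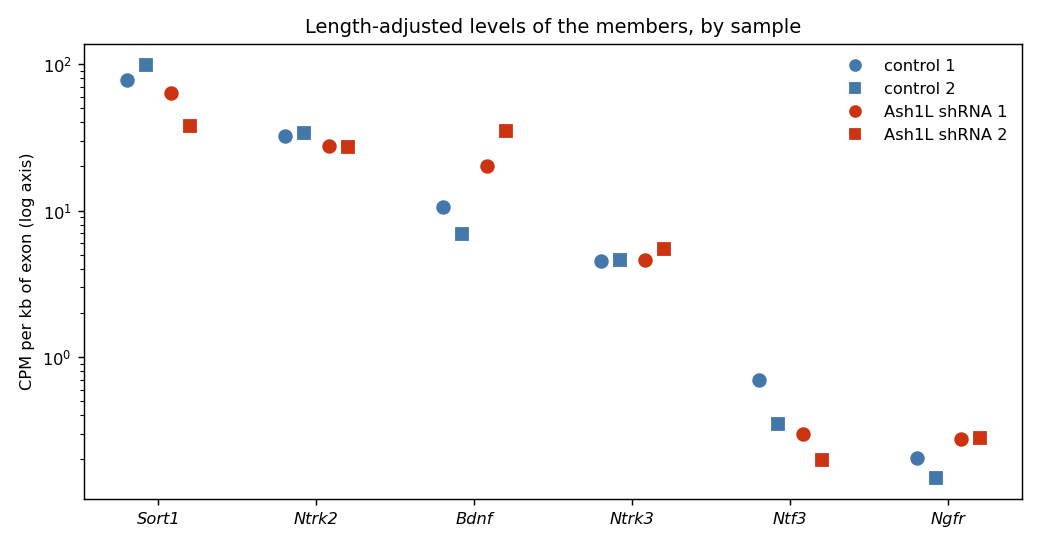
CPM per kb of exon (y axis, log scale) of each gene in each of the 4 samples, with control in blue, *Ash1L* shRNA in red, circles for sample 1 and squares for sample 2. The genes are ordered by their control mean, from *Sort1* at 88.5 to *Ngfr* at 0.177. *Bdnf* lies below *Ntrk2* in *Ash1L* shRNA sample 1 and above it in sample 2.

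To set the receptors and ligands beside the rest of their pathway, 80 further genes in 7 lists were examined, of which 77 passed the filter. Of these, 9 were UP (11.7%) and 6 were DOWN (7.79%), beside 8.61% and 8.28% of all genes tested. The median log2 fold change of the 77 genes was 0.09, and their adjusted p ran from 0.234 to 0.976 (edgeR's quasi-likelihood test). Only *Nptx2* and *Mmp3* of the 15 called genes kept the call in all 4 fits without 1 sample: 7 lost it without control sample 1, 11 without control sample 2, 2 without *Ash1L* shRNA sample 1 and 7 without *Ash1L* shRNA sample 2. Blocked by replicate number, 11 of the 15 kept the call.

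The enzymes that process and shed neurotrophins and their receptors had 3 UP and 1 DOWN among 12 tested genes. Of all genes tested, 8.61% were UP and 8.28% DOWN. *Plat*, which encodes tissue plasminogen activator, the protease that activates plasmin for the cleavage of proBDNF, had 48.7 and 39.6 CPM in control and 61.7 and 117 CPM in *Ash1L* shRNA samples. It was called UP with a log2 fold change of 1.02 ± 0.31 (SE) and adjusted p = 0.26 (edgeR quasi-likelihood), and not without control sample 2 (0.87). *Mmp3*, a matrix metalloprotease gene, was called UP on 2 and 1 raw counts in control and 75 and 41 in *Ash1L* shRNA samples. Its log2 fold change was 5.1 ± 0.71 (SE) and adjusted p = 0.234 (edgeR quasi-likelihood). With the samples of each group pooled, the ratio was 39.5 with an exact counting interval from 13.2 to 195. This interval leaves out the spread between samples. *Pcsk6*, a proprotein convertase gene, was called DOWN at -0.51, and not without control sample 1 (-0.41) or *Ash1L* shRNA sample 1 (-0.39). *Furin*, the convertase gene best known for cutting proneurotrophins, had 28.1 and 27.1 CPM in control and 25.4 and 33.3 CPM in *Ash1L* shRNA samples, giving a log2 fold change of 0.09 ± 0.17 (SE).

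Adaptor proteins carry the signal away from the receptors. Over all genes tested, 8.61% were UP and 8.28% DOWN, beside which the counts of these short lists stand. Of 20 tested Trk adaptor genes, 1 was UP (*Shc4*, log2 fold change 0.68) and 1 was DOWN (*Shc2*, -0.36), and the list had a median of -0.04. *Shc4* and *Shc2* each lost the call in 3 of the 4 fits without 1 sample. The gene of the central adaptor FRS2, *Frs2*, had a log2 fold change of 0.23 ± 0.15 (SE), and *Plcg1*, the phospholipase gene, -0.03 with a standard error of 0.10. Of 7 p75NTR adaptor genes, none was called by edgeR's quasi-likelihood test, by its likelihood ratio test or by DESeq2, and 0 had an unadjusted p under 0.05 in the first. Their log2 fold changes ran from -0.14 to 0.30.

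Among 13 genes that regulate *Bdnf* transcription, 1 was UP and 3 were DOWN (8.61% and 8.28% of all genes tested). *Mef2a* was UP (log2 fold change 0.32), and *Camk4* (-0.47) and *Usf2* (-0.39) were among those DOWN. None of these 4 kept the call in every fit without 1 sample. *Camk4* encodes a kinase that activates CREB. The gene of CREB itself, *Creb1*, had 104 and 105 CPM in control and 108 and 117 CPM in *Ash1L* shRNA samples, giving a log2 fold change of 0.11 ± 0.11 (SE). *Npas4*, an activity-induced transcription factor gene, had 26.1 and 13.3 CPM in control, 18.4 CPM in *Ash1L* shRNA sample 1 and 529 CPM in sample 2. The knockdown samples thus differed from each other in *Npas4*, and its log2 fold change of 3.82 ± 1.80 (SE) did not pass the test.

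The genes that respond to neuronal activity and to BDNF showed the same split. Of 15 tested, 2 were UP and none was DOWN by edgeR's quasi-likelihood test, while DESeq2 called 5 UP and none DOWN. Over all genes, 8.61% were UP and 8.28% DOWN in the first test. DESeq2 called 1225 UP and 1264 DOWN of 16232. The median log2 fold change was 1.17. *Ash1L* shRNA sample 2 lay above both controls in 15 of 15 genes, while sample 1 lay above both controls in 3, below both in 7 and between them in 5. *Fos* had 39.3 and 27.5 CPM in control, 27.9 CPM in *Ash1L* shRNA sample 1 and 630 CPM in sample 2. *Arc* had 257 and 182 CPM in control, 126 CPM in *Ash1L* shRNA sample 1 and 953 CPM in sample 2. Over the 15 genes, the median log2 of CPM over the control mean was -0.07 in sample 1 and 1.92 in sample 2. *Bdnf* did not follow this split, since it was 2.30 times the control mean in sample 1 and 3.97 times in sample 2. The same held for *Nptx2*, at 2.32 and 4.21 times the control mean, and for *Vgf*, the gene of a secreted neuropeptide precursor, at 1.53 and 2.95 times. *Nptx2* and *Vgf* were the 2 genes of the list that were UP, with log2 fold changes of 1.71 (standard error 0.37) and 1.17 (standard error 0.34), and *Vgf* was not called without control sample 2 (0.95). The part of recent neuronal activity in the *Bdnf* values was not tested.

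**Figure D4:**
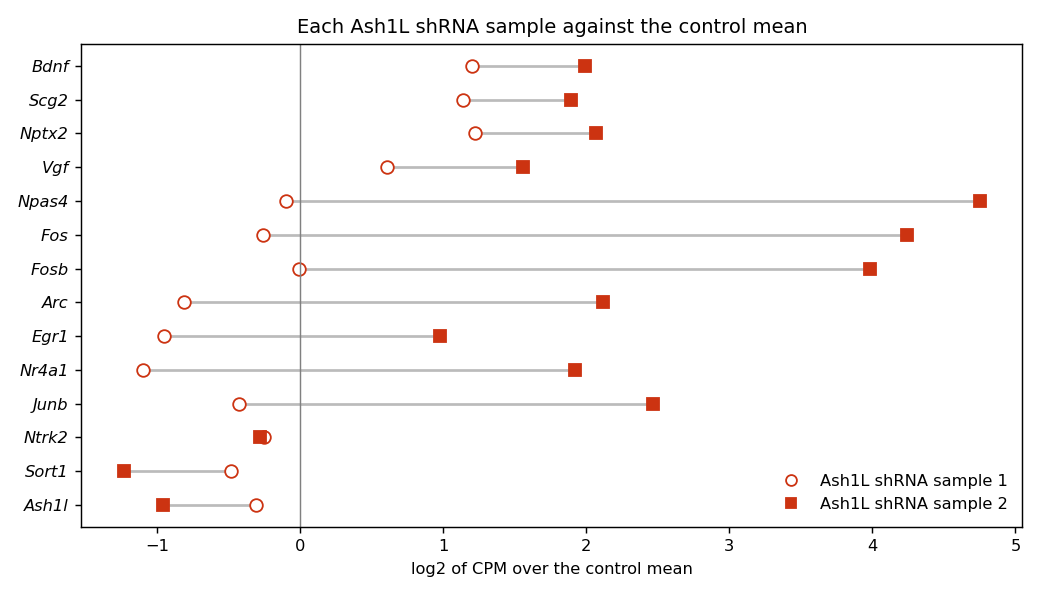
Log2 of the CPM in each *Ash1L* shRNA sample over the control mean (x axis) for *Bdnf*, *Ntrk2*, *Sort1*, *Ash1l* and genes of the activity-responsive pattern, with open circles for sample 1 and filled squares for sample 2. *Bdnf*, *Scg2*, *Nptx2* and *Vgf* are above 0 in both samples, whereas *Npas4* and *Fos* are at -0.10 and -0.26 in sample 1 and at 4.75 and 4.24 in sample 2.

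**Figure D5:**
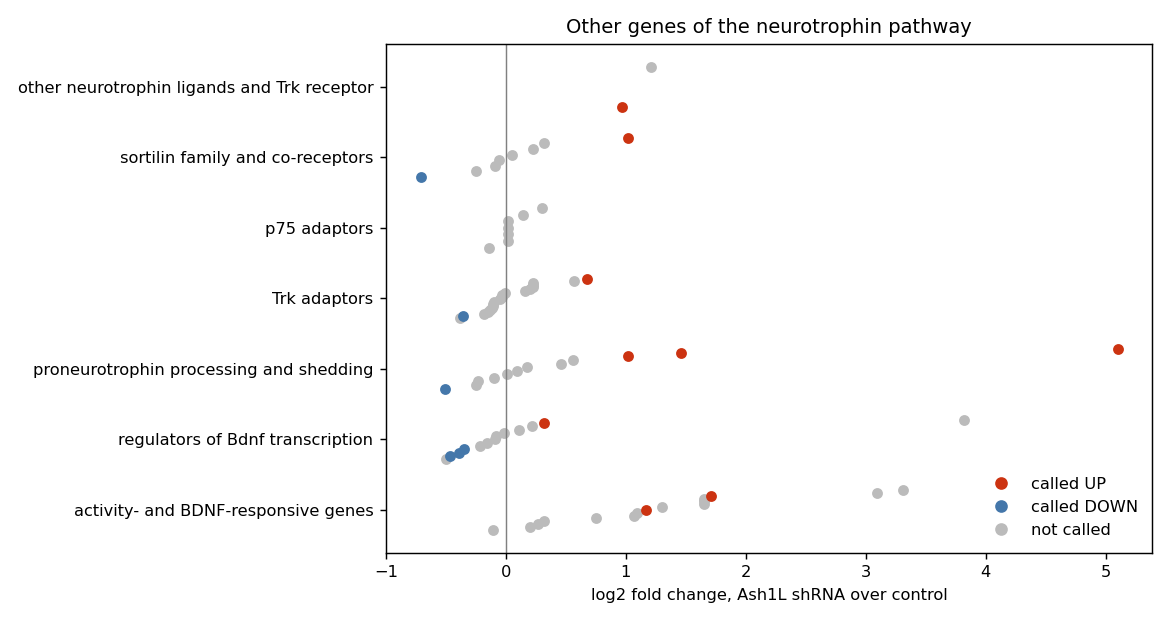
Log2 fold change of *Ash1L* shRNA over control (x axis) for each of the 77 tested pathway genes, 1 point per gene in rows by list, red if UP, blue if DOWN and grey if not called. The p75 adaptor genes lie between -0.14 and 0.30 and the Trk adaptor genes between -0.38 and 0.68. The highest points of the processing, regulator and activity-responsive lists are *Mmp3* (5.1), *Npas4* (3.82) and *Fos* (3.31). *Npas4* and *Fos* were not called and were high in *Ash1L* shRNA sample 2 only.

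Other neurotrophic factor systems, those of the GDNF and CNTF families with *Manf* and *Cdnf*, had 3 UP and 1 DOWN among 15 tested genes. The shares over all genes tested were 8.61% UP and 8.28% DOWN. The UP genes were *Il6st* (log2 fold change 0.44), which encodes the shared receptor gp130, *Osmr* (1.04), the oncostatin M receptor gene, and *Lif* (2.07), a cytokine gene. *Gfra2*, a GDNF family receptor gene, was DOWN at -0.44. *Lif* had 0.513 to 1.06 CPM in control samples, 1.13 CPM in *Ash1L* shRNA sample 1 and 5.16 CPM in sample 2. Without control sample 1, 0 of the genes were UP, 1 was without control sample 2, and 5 were without *Ash1L* shRNA sample 1.

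Cell type markers give the setting of these values. Of 8 excitatory neuron markers, the class that expresses most *Bdnf*, 4 were DOWN and 0 UP, and their summed level was 2820 and 3300 CPM in control against 2590 and 2090 CPM in *Ash1L* shRNA samples. Interneuron markers had 5 of 10 DOWN, pan-neuronal markers 1 of 12 and oligodendrocyte markers 2 of 10, with none UP. Oligodendrocyte precursor markers had 2 of 7 UP. Striatal markers, a check on the dissection, had 2 UP and 1 DOWN of 7 tested, with sums of 132 and 133 CPM in control and 144 and 234 CPM in *Ash1L* shRNA samples. Both knockdown samples were above both controls for 5 of the 7 (26.5% of all genes tested) and below them for 1 (26.8%). Microglia markers had 0 of 10 with an unadjusted p under 0.05 by edgeR's quasi-likelihood test, and their sums of 1150 and 458 CPM in *Ash1L* shRNA samples 1 and 2 lay on either side of the controls (869 and 887). Endothelial markers had 1 of 10 UP, and meningeal fibroblast markers 2 UP and 2 DOWN of 9. Peripheral immune markers had 7 of 9 DOWN, with sums of 58.8 and 112 CPM in control and 70.7 and 21.8 CPM in *Ash1L* shRNA samples. The part of cell type differences in the values of the neurotrophin genes was not tested.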

How the data were processed

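Bulk RNA from PFC punches was sequenced in 4 samples, with totals of 14251190 to 35764874 counts. Per the methods, the authors mapped the reads with STAR (build mm10) and used featureCounts. What they deposited is 1 table of raw, unnormalized counts for each sample, by gene symbol. The labels also describe Cutadapt and TopHat2, while the submitters' processing notes list STAR, featureCounts and DESeq2. No strand or multiple-mapping setting is stated, so reads of other transcripts that overlap *Bdnf*, *Ntrk2*, *Ntrk3* and *Sort1* in GENCODE vM21 may be included. Genes were filtered with filterByExpr, scaled with TMM and tested by the quasi-likelihood F test in edgeR 4.0.16 (R 4.3.3) between the groups, and p-values were adjusted by Benjamini-Hochberg over 16232 genes. The standard error is the log2 fold change over the square root of F. The replicates of a group differed by more than counting error, with a chi-square per degree of freedom of 14.8 in control and 42.3 in *Ash1L* shRNA samples. Alternatives were DESeq2 1.42.0, edgeR's likelihood ratio test, scaling by RLE, by upper quartile or by library size alone, 2 other filters, a 1.5-fold limit, the replicate block and each sample left out. The genes and lists were chosen with earlier results of these data known. Named pathway genes are the called genes, at most 4 per list and direction by mean count. The 3 genes nearest to each neurotrophin gene were also selected, and other genes were named after their values were seen. The test was checked on simulated counts. Gene positions and exonic lengths came from GENCODE vM21, and promoter windows from RefSeq GRCm38.p6. Some genes of the lists enter the counts and are not reported here by name.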

Additional observations from a re-analysis of the deposited data

How the results depend on the processing

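*Bdnf* kept its direction and its call under every alternative run, with log2 fold changes from 1.63 to 1.70 when all samples were kept and from 1.21 to 2.0 with 1 sample left out, although its adjusted p ran from 9.42e-06 to 0.87 over edgeR's and DESeq2's fits. *Sort1* kept its call with all samples (-0.84 to -0.77) and ran from -1.23 to -0.48 with 1 sample left out. *Ntrk2* kept its direction and was called under DESeq2 and RLE scaling only. It was not called with the likelihood ratio test (-0.27), upper-quartile scaling (-0.25), library-size scaling (-0.23), the filter lowered to 1 count in any sample (-0.27), at least 10 counts in every sample (-0.26), the 1.5-fold limit (-0.27), the replicate block (-0.27) or the crossed block (-0.27), and it ran from -0.29 to -0.24 with 1 sample left out. Under each of these 8 settings 1 of the 6 genes was DOWN, and 0 to 1 with 1 sample left out. *Ntrk3*, *Ngfr* and *Ntf3* were not called and did not change sign under any alternative. *Ntf3* had no value under the 10-count filter. Of the pathway genes, 14 were UP with DESeq2 and 14 with the likelihood ratio test, 1 was DOWN at the 1.5-fold limit, and with 1 sample left out 1 to 8 were DOWN and 2 to 26 UP. Same-numbered samples share only a number. Their deviations from the group means had a correlation of -0.151, so the crossed pairing was added after seeing the data. Over all genes, 1020 were DOWN and 1052 UP with the replicate block and 1736 and 1541 with the crossed block, against 1344 and 1397 without a block. After adjustment, 1 gene passed without a block in edgeR's quasi-likelihood test (2746 at an unadjusted p under 0.05), 421 did with DESeq2 and 2502 without *Ash1L* shRNA sample 1. Depth limits *Ntf3*, *Ngfr* and *Ntf5*.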
